A study of Penicillium oxalicum with 6 samples.

Results

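The genes described here are the 70 identifiers of Penicillium oxalicum whose deposited Gene Ontology function contains the words methyltransferase activity, out of 8902 identifiers in all. They were chosen by annotation alone, and LaeA (PDE_00584) is 1 of them. This filamentous fungus secretes enzymes that break down plant biomass, and the series addresses how its transcription depends on mtr23B, a gene for a putative methyltransferase that has been studied beside LaeA. Digital gene expression tags were sequenced from mycelia of 3 strains in 2 media, with 1 library for each of the 6 combinations. The values below come from the 3 glucose libraries, in which the values follow the gene annotation. The 3 libraries from wheat bran and cellulose were not used by gene, for the reason given with the processing.

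The parent strain M12 is a uracil auxotroph with the allele pyrGQ226*, obtained from wild type 114-2. Dmtr23B is the strain in which mtr23B was deleted, and Rmtr23B is the complemented strain, into which the gene was returned. Whether Dmtr23B and Rmtr23B keep the M12 allele is not stated in the labels. Every strain was pre-cultured from conidia on 2% glucose in Vogel's medium (30 °C, 20 h), and its mycelia then spent 24 h in fresh medium of the same kind. The labels pair mtr23B with no identifier, so its own tag count was not analysed here. It may be 1 of the members, and that member's value in the deletion strain would then be the deletion itself. Values given in threes below follow the order M12, Dmtr23B, Rmtr23B, which are called the parent, the deletion strain and the complemented strain. The parent and the complemented strain both carry mtr23B and are called the carriers. Each strain has 1 library, and no difference has a replicate culture behind it.

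Methyltransferases move a methyl group from a donor, mostly S-adenosylmethionine, to RNA, protein, lipids or small molecules. In Aspergillus nidulans, LaeA is a nuclear protein with a methyltransferase fold that joins the velvet proteins VeA and VelB and is needed for many gene clusters of secondary metabolism, and O-methyltransferases are common tailoring enzymes within such clusters. RNA methyltransferases act in ribosome assembly, tRNA modification and mRNA capping, and protein methyltransferases modify histones and other proteins.

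The glucose libraries assigned 2048846, 2013784 and 2147854 tags to identifiers, 60.1% to 63.9% of the library totals. Levels are given as TPM, which here are tags scaled to a common library total and not divided by length, and levels of different genes are not ranked. Ratios of 2 libraries are followed by exact binomial 95% intervals, which cover counting error only. In these bulk RNA samples, fewer cells of a type and less RNA per cell cannot be told apart. BrlA (PDE_00087), a zinc finger regulator of conidiation, had 90.5, 5.37 and 89.3 TPM, so a developmental regulator moved between the same libraries, and its part in the results below was not tested.

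The members fell into families by the text of their best protein match and, where that text was only a systematic name, by the specific term of their ontology entry. LaeA stood alone, 5 members were O-methyltransferases, 16 acted on RNA and 8 on proteins. Another 14 belonged to lipid, cofactor and methionine synthesis, 1 was of the DNA repair type (MGMT family, PDE_01327) and 2 had another name. A further 5 transfer hydroxymethyl or aminomethyl groups and match the rule by the letters of their terms or by a second, general term. The remaining 18 had no class, and 1 of these, PDE_06763, is described as kish-A, a membrane protein not known as a methyltransferase. The label thus holds for most but not all members: PDE_06265 is also described as the sterol demethylase Cyp51B, a cytochrome P450 that removes a methyl group.

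Terms outside the rule give further annotation of the members. The process term methylation was carried by 44 members, of 48 identifiers that have it. That term goes with the function term of the rule, so its overlap follows from the choice of members. Among KEGG pathways of a narrower kind, tyrosine metabolism held 8 members of its 91 identifiers, histidine metabolism 6 of 69, the 1-carbon pool by folate 4 of 37, cysteine and methionine metabolism 4 of 53 and RNA degradation 4 of 94. The 6 members of histidine metabolism are all among the 8 of tyrosine metabolism. LaeA was among the members placed in RNA degradation, and 32 members had no pathway.

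Of the 70 members, 52 reached 10 TPM in any of the 3 libraries, a minimum of about 34 tags, and were compared. The other 18 reached at most 31 tags, or 9.23 TPM. Among these were 2 histone methyltransferases: the H3 lysine-36 enzyme PDE_02255 had 5, 13 and 5 tags and the set9 homologue PDE_04196 had 0, 3 and 2 tags. The DNA repair member PDE_01327 had 5, 15 and 12 tags. PDE_07895, described as a ubiE/COQ5 methyltransferase, had 8, 21 and 9 tags, and PanB (PDE_08748), an enzyme of pantothenate synthesis, had 11, 17 and 7 tags. PDE_06748, a DUF858 protein, had 0, 2 and 3 tags. These counts are too low for a comparison between strains.

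**Figure D1:**
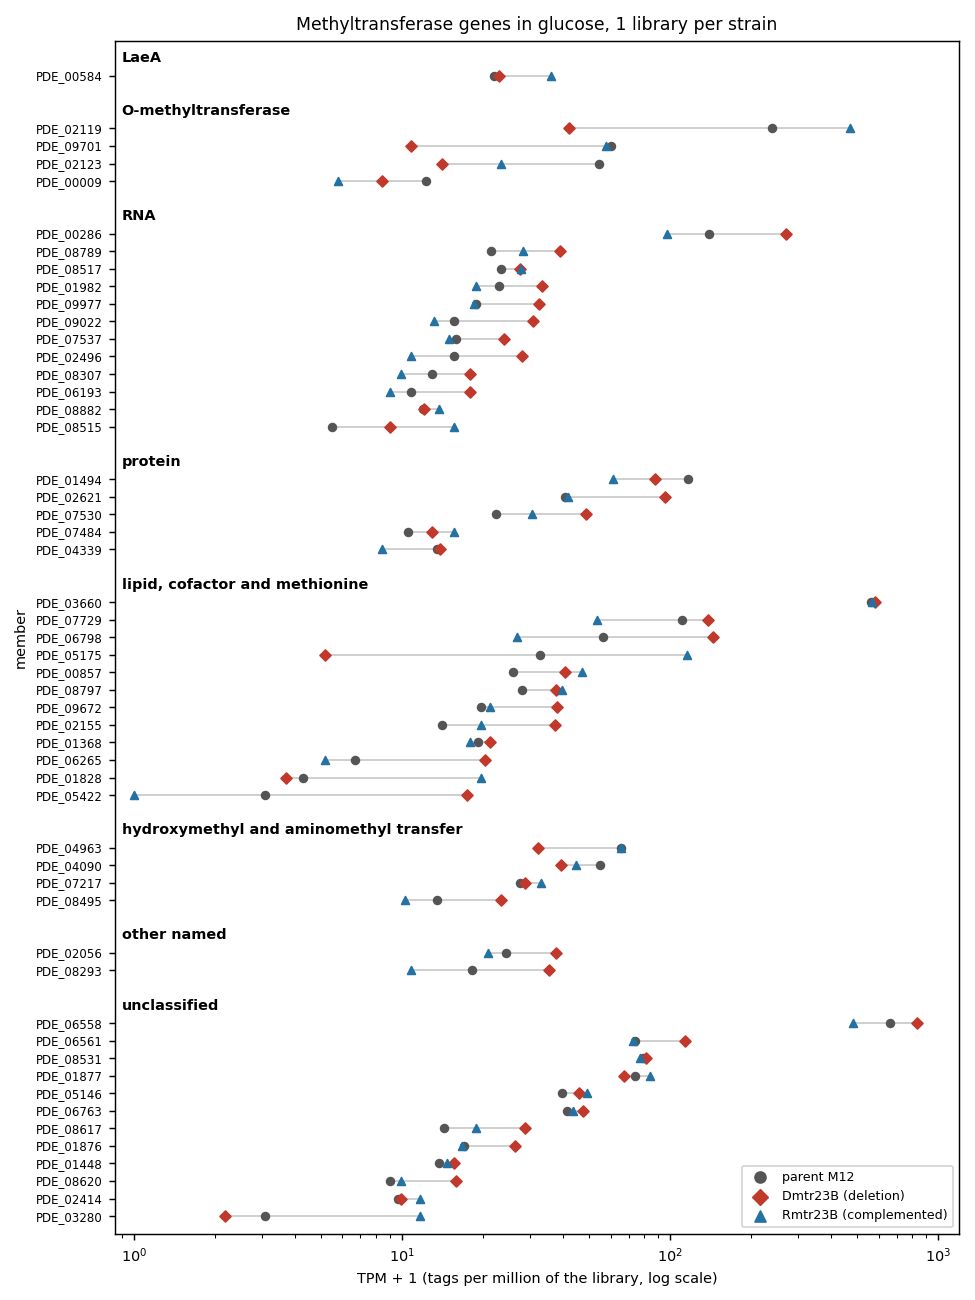
Level of each of the 52 compared members in the 3 glucose libraries, as TPM + 1 on a log scale, grouped by family, with 1 point per library and a grey line joining the lowest and the highest strain. Of the members with the deletion strain at the left, the O-methyltransferase PDE_02119 and the methionine synthase homologue PDE_05175 span the widest ranges. PDE_05422 also spans a wide range, with the deletion strain at the right. The methionine synthase PDE_03660 shows 3 nearly coincident points between 563 and 580.4 TPM.

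LaeA was higher in the complemented strain than in the other two and did not differ beyond counting error between the deletion strain and the parent. It had 71, 74 and 117 tags, or 21.1, 22.1 and 34.8 TPM. The deletion strain stood at 1.04 times the parent (0.744 to 1.47). The complemented strain stood at 1.65 times the parent (1.22 to 2.25) and at 1.58 times the deletion strain (1.17 to 2.14), so it was the strain that differed from both others, and by less than 2-fold. In edgeR's quasi-likelihood test of the deletion strain against the other 2 strains, LaeA did not pass (adjusted p 0.552). Scaling the libraries by their median ratio put LaeA at 21.9, 18.4 and 40.4, with the deletion strain lowest.

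Velvet proteins and developmental regulators that work in the same network as LaeA in aspergilli were sought by name, and 2 were matched, BrlA and VeA. BrlA fell in the edgeR test (adjusted p 0.0179). VeA (PDE_00650), the velvet protein that binds LaeA, had 2, 2 and 4 tags. At that depth no difference in VeA was detectable.

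Over the whole set the deletion strain stood apart about as often as over all genes. A member counted as apart when its TPM + 1 in 1 strain exceeded, or lay under, that of each other strain by a factor of 2 or more. By this rule 4 members were higher and 4 lower in the deletion strain, 15.4% of the 52, beside 18.6% of all 5756 genes that reached the same minimum. The shares over all genes were 10.8% higher and 7.82% lower. Of the 4 higher members, PDE_05422 and PDE_06265 reached the minimum in the deletion library alone, so they could enter the count only by being high there. Among those just inside the limit were PDE_02621, 2.30-fold above the nearer of the other strains, and PDE_04963, 2.05-fold below it. Just outside were PDE_09022, 1.98-fold above, and PDE_02123, 1.65-fold below.

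In the edgeR test 1 member fell and none rose (Benjamini-Hochberg adjusted over all 5756 genes, two-sided, threshold 0.05). Of all genes, 1.32% rose, 3.39% fell and 4.71% did either. At an unadjusted p under 0.05 edgeR counted 3 higher and 5 lower members, beside 5.96% and 11.3% of all genes. DESeq2 called 0 members higher and 3 lower, beside 1.32% and 5.65% of all genes. The spread in this test comes from the parent and the complemented strain taken as 2 samples of a strain carrying mtr23B, and the lone deletion library is assumed to vary like them. Differences of strain, culture and library preparation therefore cannot be told apart.

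**Figure D2:**
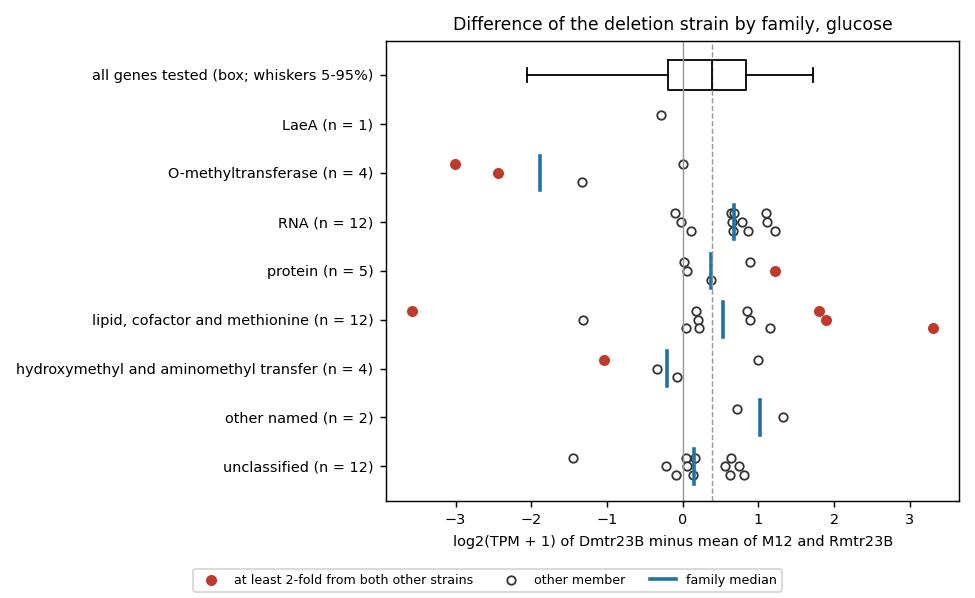
Deletion strain minus the mean of the carriers on the log2(TPM + 1) scale for the 52 compared members by family, with 1 point per member, filled where the member was at least 2-fold from both other strains, and the family median as a bar. The box shows all 5756 genes, whose median of 0.38 is the dashed line; O-methyltransferases reach -3.00, and RNA methyltransferases lie between -0.10 and 1.22.

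The O-methyltransferases had the lowest median of the families in the deletion strain. Of its 5 members 4 were compared, 2 were lower by size and none higher, and 1 fell in the edgeR test. Of all genes, 7.82% were lower and 10.8% higher by size, and the shares by edgeR are those given above. The family median was -1.89 (log2), beside 0.38 for all genes, and it stayed negative under every scaling tried (-2.26 under median-ratio scaling).

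PDE_09701, an unnamed protein annotated with catechol O-methyltransferase activity, had 199, 33 and 191 tags, or 59.2, 9.85 and 56.8 TPM. The deletion strain was the low one, and the parent and complemented strains overlapped within counting error, at a ratio of 0.960 (0.783 to 1.18). The deletion strain was exceeded 6.02-fold by the parent (4.15 to 8.98) and 5.77-fold by the complemented strain (3.97 to 8.63). It was the member that fell in the edgeR test (adjusted p 0.0245), and it also passed edgeR with another normalization, another minimum and no minimum, and DESeq2, with adjusted p from 0.00125 to 0.0335.

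PDE_02119, described as a putative O-methyltransferase, had 805, 137 and 1575 tags, or 239.6, 40.9 and 469 TPM. All 3 strains differed beyond counting error. The parent exceeded the deletion strain 5.86-fold (4.88 to 7.08), and the complemented strain exceeded the deletion strain 11.5-fold (9.63 to 13.8) and the parent 1.96-fold (1.80 to 2.13). The carriers thus differed from each other, and PDE_02119 did not pass the edgeR test (adjusted p 0.0623), while DESeq2 called it (adjusted p 2.28e-05).

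PDE_02123, 4 locus numbers further on and annotated with O-methyltransferase activity, had 53.3, 13.1 and 22.3 TPM. It was lowest in the deletion strain, and the parent was the high strain, 4.06-fold above the deletion strain (2.90 to 5.78) and 2.39-fold above the complemented strain (1.81 to 3.17). The complemented strain was 1.70-fold above the deletion strain (1.16 to 2.53), which is under the 2-fold limit (edgeR adjusted p 0.169). PDE_02123 was the only member apart in the parent, and it was higher there; of all genes 2.35% were higher and 0.573% lower in the parent, 2.92% in all.

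The other O-methyltransferases had few tags. PDE_06627 had 10, 0 and 27 tags, so by a floor of 3 tags it was lower in the deletion strain by at least 3.33-fold against the parent and by at least 8.98-fold against the complemented strain, with exact lower limits of 2.24 and 6.81. It stayed under the 10 TPM minimum and entered no count above. PDE_00009, annotated with catechol O-methyltransferase activity, had 38, 25 and 16 tags, and the deletion strain lay between the other strains without differing from either beyond counting error.

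**Figure D3:**
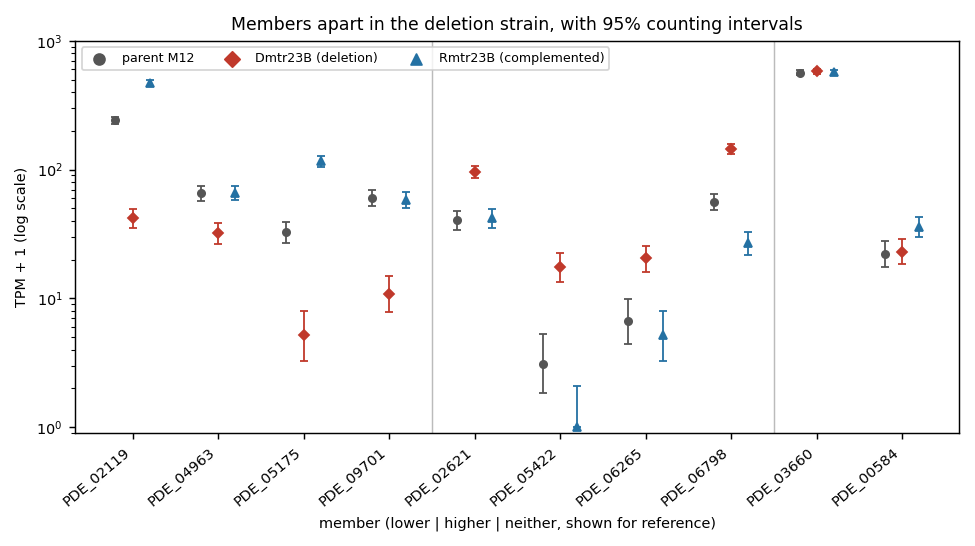
Level of the 8 members apart in the deletion strain and of PDE_03660 and LaeA (PDE_00584) for reference, as TPM + 1 on a log scale, with exact 95% counting intervals and 1 library per strain. The first 4 members have the deletion strain lowest and the next 4 have it highest; only PDE_05422 reaches 0 tags, in the complemented strain.

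RNA methyltransferases were mostly highest in the deletion strain with the deposited TPM, less so under median-ratio scaling, and none reached the size limit for standing apart. Of 16 members 12 were compared, and 9 had their highest value in the deletion strain and none their lowest (8 and 2 under median-ratio scaling). Of all genes, 58.9% were highest and 23.6% lowest there (38.7% and 38.6% under median-ratio scaling). In 8 members the deletion strain was above both other strains beyond counting error, beside 37.9% of all genes. PDE_06193, counted in the 9 and in the 8, reached the minimum in the deletion library alone, so it could be compared only by being high there. PDE_08515 reached the minimum in the complemented library alone. When libraries were scaled to assigned tags, PDE_09022 passed the size limit. None passed the edgeR test, also at an unadjusted p under 0.05, or DESeq2. The family median was 0.67 (log2), against 0.38 for all genes, and under median-ratio scaling, which takes out that general shift, it was 0.30 and 3 members were above both, 25% of the 12 beside 19.2% of all genes.

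The fibrillarin homologue PDE_00286, the nucleolar enzyme that methylates ribosomal RNA, stood at 138.4, 270.3 and 96.7 TPM. The deletion strain was highest and the complemented strain lowest, with all 3 separated by counting. The deletion strain exceeded the parent 1.95-fold (1.74 to 2.19) and the complemented strain 2.79-fold (2.46 to 3.18), and edgeR was not passed (adjusted p 0.474). Nop2 (PDE_09977), a nucleolar methyltransferase of ribosome assembly, stood at 17.9, 31.3 and 17.6 TPM, so the parent and the complemented strain nearly coincided. PDE_02496, annotated with rRNA (guanine) methyltransferase activity, stood at 14.6, 27.2 and 9.82 TPM, and PDE_06193, annotated as an rRNA adenine dimethyltransferase, at 9.82, 17.0 and 8.04 TPM. In both the deletion strain was highest.

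Of the members annotated for RNA capping, PDE_09022 stood at 14.6, 29.8 and 12.2 TPM. Its deletion strain was 2.05-fold above the parent (1.44 to 2.94) and 2.45-fold above the complemented strain (1.68 to 3.61). The other capping member, PDE_08882, stood at 11, 11 and 12.8 TPM, with no difference detectable at this depth. Among the tRNA enzymes, PDE_01982 (guanine-37) was highest in the deletion strain at 32.2 TPM against 22 and 17.9 TPM, and PDE_07537 (uracil-54) at 23.0 TPM against 14.9 and 14.0 TPM. PDE_08517 (guanine-N7) stood at 22.3, 26.6 and 26.8 TPM. PDE_08515, annotated for tRNA processing, had 15, 27 and 49 tags and was highest in the complemented strain. PDE_08789, annotated for RNA methylation, stood at 20.5, 37.9 and 27.4 TPM, highest in the deletion strain. Under median-ratio scaling it stood at 21.2, 31.6 and 31.8, so the deletion strain and the complemented strain nearly coincided. PDE_06229 of the same process had 3, 9 and 3 tags.

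Protein methyltransferases had no common pattern. Of 8 members 5 were compared, 1 was higher by size in the deletion strain and none lower, and none passed edgeR, also at an unadjusted p under 0.05, or DESeq2. By size, 10.8% of all genes were higher and 7.82% lower. The family median of 0.37 (log2) lay at the general shift, and it was 0.01 under median-ratio scaling. PDE_02621, annotated for protein methylation, stood at 39.6, 94.9 and 40.8 TPM. The deletion strain was 2.40-fold above the parent (1.95 to 2.96) and 2.33-fold above the complemented strain (1.90 to 2.86), and the 2 carriers overlapped. It did not pass edgeR (adjusted p 0.353) and lost its place in the count under median-ratio scaling. RmtC (PDE_07530), a protein methyltransferase, stood at 21.4, 47.4 and 29.5 TPM. The protein-L-isoaspartate O-methyltransferase PDE_01494, which repairs aged proteins, was highest in the parent at 115.2 TPM. It had 87.1 TPM in the deletion strain and 60.4 TPM in the complemented strain. With the deposited TPM the deletion strain thus lay between the other strains beyond counting error. Under median-ratio scaling PDE_01494 stood at 119.2, 72.6 and 70.1, so the deletion strain and the complemented strain nearly coincided. The arginine methyltransferase PDE_04339 stood at 12.5, 12.8 and 7.44 TPM, and the histone-lysine methyltransferase PDE_07484 at 9.52, 11.9 and 14.6 TPM.

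The 3 genes annotated as cobalamin-independent methionine synthase, the enzyme that makes methionine by methylating homocysteine, had 3 different patterns. PDE_03660 had 1891, 1945 and 1905 tags, and with the deposited TPM the ratio of the deletion strain to the parent was 1.03 (0.967 to 1.10). Under median-ratio scaling it stood at 582, 483 and 658, with the deletion strain lowest. PDE_05175 had 107, 14 and 385 tags, or 31.8, 4.18 and 114.6 TPM. It was lowest in the deletion strain, 7.62-fold below the parent (4.35 to 14.4) and 27.4-fold below the complemented strain (16.1 to 50.7), and the complemented strain was 3.60-fold above the parent (2.90 to 4.50).

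PDE_05422 went the opposite way, with 7, 55 and 0 tags. Dmtr23B was 7.88-fold above the parent (3.58 to 20.5) and, by the floor of 3 tags, at least 18.4-fold above the complemented strain (exact lower limit 14.5). The TPM of the 3 genes, added with no correction for length, came to 597, 601 and 682, of which PDE_03660 held 94.3%, 96.6% and 83.2%. Neither of the other copies passed edgeR (adjusted p 0.0616 for PDE_05175 and 0.189 for PDE_05422), and DESeq2 called PDE_05175 lower (adjusted p 3.22e-05). How tags shared by gene copies were counted is not given in the sources used here, so the split between these paralogs is uncertain.

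The 2 members of phosphatidylcholine synthesis, which add methyl groups to phosphatidylethanolamine in succession, both had the order deletion, parent, complemented, which 40% of all genes have. The phospholipid methyltransferase PDE_06798 had 186, 482 and 87 tags, or 55.4, 143.8 and 25.9 TPM. Dmtr23B was 2.60-fold above the parent (2.19 to 3.09) and 5.55-fold above the complemented strain (4.41 to 7.06), without passing edgeR (adjusted p 0.194). PDE_07729, annotated with phosphatidylethanolamine N-methyltransferase activity, stood at 109.8, 137.6 and 52.4 TPM. Its complemented strain was the low one, and the deletion strain exceeded the parent by only 1.25-fold (1.09 to 1.44). Under median-ratio scaling PDE_06798 remained apart in the deletion strain.

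Sterol and cofactor members included further single differences. The sterol demethylase Cyp51B (PDE_06265), the target of azole fungicides, stood at 5.66, 19.4 and 4.17 TPM, with the deletion strain at 3.43 times the parent (2.03 to 6.06) and 4.65 times the complemented strain (2.59 to 8.98), without passing edgeR (adjusted p 0.229). Sterol 24-C-methyltransferase (PDE_01368), which acts in the ergosterol pathway, stood at 18.2, 20.3 and 17.0 TPM with no difference detectable at this depth. The 2 members of siroheme synthesis had different orders: PDE_01828, annotated with uroporphyrin-III C-methyltransferase activity, had 11, 9 and 63 tags and stood at 5.73 times the parent in the complemented strain (2.99 to 12.1), while PDE_02155 had 44, 121 and 63 tags and was highest in the deletion strain. As a whole, the lipid, cofactor and methionine family had 3 members higher and 1 lower by size of 12 compared, and none that passed edgeR, with 3 higher and 1 lower at an unadjusted p under 0.05 and 1 lower by DESeq2. The shares over all genes are those given above, 18.6% by size in either direction, and PDE_05422 and PDE_06265 are among the 3 higher members. Its median of 0.54 (log2) was 0.15 under median-ratio scaling.

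Enzymes that supply 1-carbon units included serine hydroxymethyltransferase PDE_04963, which charges folate with a carbon from serine. It had 217, 104 and 218 tags, or 64.6, 31.0 and 64.9 TPM, so the deletion strain stood at 2.08-fold below the parent (1.64 to 2.66) and 2.09-fold below the complemented strain (1.65 to 2.67). The 2 carriers coincided (ratio 1.00, 0.829 to 1.22), and the edgeR test was not passed (adjusted p 0.151). It was no longer counted as lower by size when libraries were scaled to assigned tags or the pseudocount was 5. A second gene with the same activity, PDE_04090, stood at 53.9, 38.2 and 43.8 TPM. The aminomethyltransferase of glycine cleavage (PDE_07217) stood at 26.5, 27.8 and 32.1 TPM, while the dimethylglycine dehydrogenase PDE_08495 was highest in the deletion strain at 22.4 TPM against 12.5 and 9.23 TPM.

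Among the members with another name and those without a class, none was apart in the deletion strain. The thiol methyltransferase PDE_08293 stood at 17.3, 34.3 and 9.82 TPM and the nicotinamide N-methyltransferase PDE_02056 at 23.5, 36.4 and 19.9 TPM. The unnamed PDE_06558, at 660, 832 and 479.5 TPM, was highest in the deletion strain, which exceeded the parent 1.26-fold (1.19 to 1.33). Under median-ratio scaling it stood at 682, 693 and 557, so the deletion strain and the parent nearly coincided. PDE_06561 stood at 73.2, 112.5 and 71.4 TPM, and its carriers nearly coincided. PDE_03280, a hypothetical protein, had 7, 4 and 36 tags, 5.14-fold more in the complemented strain than in the parent (2.26 to 13.7). The 12 compared members without a class had a median of 0.15 (log2), which was -0.23 under median-ratio scaling.

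The strain order of the 52 members largely followed that of all genes. The deletion strain was highest in 31 members, beside 58.9% of all genes, and lowest in 9, beside 23.6%. The complemented strain was highest in 16 members, beside 20.2%. Of the orders, deletion above parent above complemented was the most frequent, with 21 members (40.4%). The order complemented above deletion above parent, that of LaeA, held 10 members (19.2%) beside 6.67% of all genes with the deposited TPM. Under median-ratio scaling it held 5 (9.62%) beside 11.3%, and 4 of the 10 kept it, LaeA not among them. Under TMM scaling it held 4 (7.69%) beside 10.9%. In the deposited TPM of 4 of these 10, LaeA, PDE_00857, PDE_08515 and PDE_08797, the complemented strain exceeded the parent beyond counting error, and in 6 it did not. PDE_02414 and PDE_08515, among the 10, reached the minimum in the complemented library alone, so they could be compared only by being high there. By counting intervals 24 members were above both other strains in the deletion strain and 5 below both, beside 37.9% and 12.9% of all genes. PDE_05422, PDE_06193, PDE_06265 and PDE_08620, counted in these 24 and in the 31, reached the minimum in the deletion library alone. The shares over all genes were taken with the same minimum. Under median-ratio scaling the deletion strain was highest in 24 members and lowest in 20, beside 38.7% and 38.6% of all genes. Above both were 9 and below both 9, each 17.3% of the 52, beside 19.2% and 22% of all genes.

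**Figure D4:**
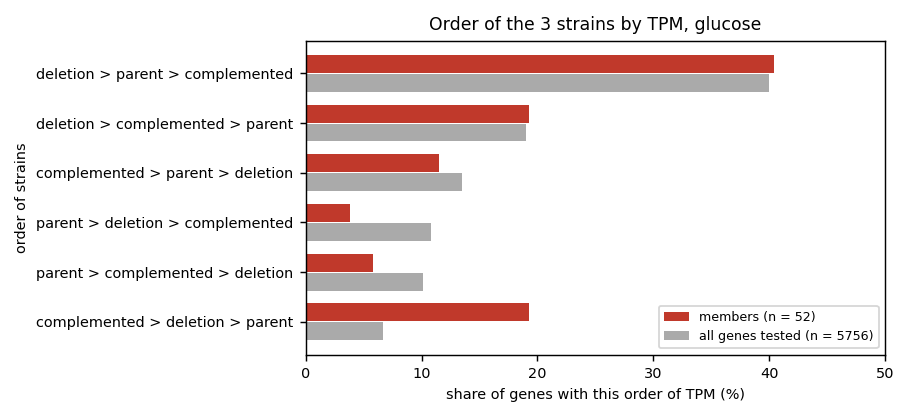
Share of genes with each order of the 3 strains by TPM in glucose, for the 52 compared members and for all 5756 genes that reached 10 TPM, with 1 library per strain. The shares are alike for the most frequent order, 40.4% of members and 40% of all genes, and differ most for complemented above deletion above parent, 19.2% against 6.67%, which became 9.62% against 11.3% under median-ratio scaling (not drawn).

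The complemented strain stood apart from both others in 6 members, 3 higher and 3 lower, beside 3.06% and 7.11% of all genes, or 10.2% in all. Higher were PDE_01828, PDE_03280 and PDE_05175, of which PDE_01828 and PDE_03280 reached the minimum in the complemented library alone, and lower were PDE_05422, PDE_06798 and PDE_07729. In 3 of these, PDE_05175, PDE_05422 and PDE_06798, the deletion strain was apart in the opposite direction, so the parent lay between. Against the parent alone, 6 members were higher and 5 lower in the deletion strain by 2-fold or more, beside 14.6% and 10.2% of all genes. Against the complemented strain alone 10 were higher and 6 lower, beside 25.8% and 11.1%.

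Other genes of methyl transfer were matched by name. A list for the methyl donor cycle, which regenerates S-adenosylmethionine from homocysteine, gave 9 genes, all compared, of which 3 are members described above. The list also takes in cystathionine enzymes, which lie outside that cycle, and no S-adenosylmethionine synthetase was matched by name. The methionine synthase homologue PDE_05175, lower by size and by DESeq2, has only a systematic name. It is therefore not among the 9, and the counts that follow leave it out. Of the 9, 1 was higher and 1 lower by size, both members, and none passed edgeR or DESeq2, with 1 higher and 1 lower at an unadjusted p under 0.05 in edgeR. The higher one, PDE_05422, reached the minimum in the deletion library alone. Over all genes, 10.8% were higher and 7.82% lower by size. Adenosylhomocysteinase (PDE_07131), which removes the product that inhibits methyltransferases, stood at 95.2, 74.3 and 117.6 TPM. Cystathionine gamma-lyase (PDE_00928), which draws homocysteine sulphur towards cysteine, stood at 138.7, 91.3 and 66.7 TPM.

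A further 16 genes are called methyltransferases in their protein match but carry no such ontology term, and 11 were compared. By size 2 were higher in the deletion strain, the rRNA methyltransferase Spb1 (PDE_07485, at 5.66, 17.6 and 4.46 TPM) and a prenyl cysteine carboxyl methyltransferase (PDE_03479, at 6.25, 14.6 and 2.68 TPM). Both reached the minimum in the deletion library alone, so they could enter the count only by being high there. Neither passed edgeR (adjusted p 0.298 for PDE_07485 and 0.433 for PDE_03479). The shares over all genes were 10.8% higher and 7.82% lower by size. The O-methyltransferase PDE_01069 was lower by size and fell in edgeR (29.8, 2.39 and 26.2 TPM, adjusted p 0.0186). Of 3 further SET domain or histone methyltransferase names, 1 was compared, the PHD and SET domain protein PDE_03096, which stood at 31.8, 25.1 and 12.5 TPM and was not apart. No gene was matched by a histone demethylase name.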

How the data were processed

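Tags of 17 bp next to NlaIII sites were cut from oligo(dT)-selected cDNA by MmeI and sequenced (35 bp Illumina reads), per the labels' protocols. How tags were mapped, to which build and with what strand handling is not given in the sources used here, so overlapping genes and paralogs are uncertain. The deposited table gives tag counts per identifier, not normalised. The deposited TPM values are tags relative to the library total in the file header, with no length term, and match recomputed values to within 0.005 TPM.

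The cellulose and wheat bran columns were not used by gene: 104 rows annotated as ribosome constituents had a median of 8.28 to 11.7 TPM there, near that of all rows, against 84.8 to 122 TPM in glucose.

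Members, gene lists and rules were chosen with earlier results of these data known. Families came from the protein match in 26 members, from Gene Ontology function in 16 and from process in 10; the last 2 sources, and a few added name patterns, were chosen after the table was seen. Named genes are LaeA, members apart in any strain or past edgeR, and the 2 highest and the lowest of each family, with others added after their values were seen. The size rule (2-fold on TPM + 1, minimum 10 TPM) has no test. edgeR 4.0.16 (quasi-likelihood, TMM, Benjamini-Hochberg, threshold 0.05) was fitted to all 5756 genes of the 3 libraries, and DESeq2 1.42.0 was the alternative, in R 4.3.3. The edgeR script was tested on simulated data. Intervals were computed in SciPy 1.17.1. Reads carry no molecular identifiers, so intervals and the floor of 3 tags cover counting error only. Alternatives were scaling, pseudocount, minimum level, reference strain and tool. No sequences are shown.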

Additional observations from a re-analysis of the deposited data

How the results depend on the processing

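The median of all 5756 genes in the deletion strain was 0.38 (log2) above the other strains with the deposited TPM, -0.00 under median-ratio scaling, 0.02 under TMM and 0.43 with assigned tags. That shift moved members with small differences between strains, the abundant PDE_03660 among them. The deletion strain was lowest in 20 members under median-ratio scaling, against 9, and the strain order of LaeA held 5 members, against 10. The counts by size, 4 higher and 4 lower, were 3 and 5 under median-ratio and TMM scaling, where PDE_02621 was lost and PDE_02123 gained. With a minimum of 30 TPM, 2 were higher, since PDE_05422 and PDE_06265 were no longer counted. Against 1 reference strain alone, 6 to 10 were higher and 5 to 6 lower. Those apart in the complemented strain were 5 higher and 1 lower under median-ratio scaling, against 3 and 3, and the cause was not tested. DESeq2 called 3 members lower (PDE_02119, PDE_05175 and PDE_09701), against 1 by edgeR, and with all 8737 genes of at least 1 tag edgeR called 1 higher (PDE_05422) and 4 lower, PDE_06627 included. No member apart by size changed direction in any setting. edgeR could not be run without the parent or the complemented strain, which leaves no residual degrees of freedom. No paired analysis was possible because the labels give no replicate numbers and each strain has 1 library.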

Other observations

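Locus numbers within 5 of each of the 8 members apart in the deletion strain were examined after the values were seen. For 7 of the 8, at most 1 compared neighbour was apart, and for the 4 lower members no neighbour was lower by size with the deposited TPM. Of all genes, 10.8% were higher and 7.82% lower by size. Under median-ratio and TMM scaling PDE_02123, a neighbour of PDE_02119, was counted as lower. Whether genes apart in the deletion strain lie together was not tested. Near PDE_02119 the 4 compared neighbours included PDE_02123 and a cytochrome P450, PDE_02121, with levels of 282, 157 and 152 TPM in M12, Dmtr23B and Rmtr23B. Near the phospholipid methyltransferase PDE_06798, 3 of 5 compared neighbours were higher by size in the deletion strain, among them the cipC protein PDE_06802, which rose in edgeR (187, 1516 and 146 TPM, adjusted p 0.0447). Locus number order only stands in for position.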
